A study of Mus musculus with 36 samples.

Results

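The question was how much the messenger RNA content of mouse embryonic stem (ES) cells had changed a few hours after the RNA helicase DDX6 was degraded. The comparison rests on 6 of the 36 samples in the series, 3 total RNA libraries from cells without DDX6 (DDX6deg_total, here degron 1 to 3) and 3 from control cells (control_total, here control 1 to 3), chosen by their titles alone. All 6 came from naive v6.5 ES cells kept in 2i/LIF and expressing GFP-tagged LSM14A, a P-body scaffold protein. In the degron line the sequence for the FKBP12F36V degradation tag, HA, P2A and mCherry had been placed at the end of both endogenous Ddx6 alleles. Single-cell clones had been established from sorted cells, and how many were used here is not stated. The degron libraries followed 6 h of dTAG-13 at 1 µM, which brings the tagged protein to an E3 ubiquitin ligase. The series' design text calls the comparison group a control cell line, whereas the study's figure legends describe the same tagged cells left untreated or given DMSO, so a difference between clones and an effect of the drug cannot be told apart from the labels. Cycloheximide was added to all cells 10 min before harvest. RNA was taken from lysate cleared by centrifugation, so RNA that went down with nuclei and debris was not sampled. P-body RNA may have been lost in this step too, since the study's P-body purification pelleted P-bodies at a lower force. Whether such a loss differed between the groups was not tested.

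DDX6 is a DEAD-box helicase that joins several steps of mRNA repression. It binds the CCR4-NOT deadenylase complex, through which microRNA-bound Argonaute acts, it binds the decapping activators EDC3, PATL1 and LSM14A and the eIF4E-binding protein 4E-T (Eif4enif1), and it is needed for P-bodies, the cytoplasmic granules in which these proteins gather with untranslated mRNA. Its loss can therefore alter how fast an mRNA is degraded, how well it is translated, or both. Total RNA here reports mRNA abundance in the cleared lysate. Decay and transcription both set the abundance of an mRNA. In bulk libraries, a lower level in every cell and fewer cells with the mRNA cannot be told apart.

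The libraries held 17562469 to 26614353 reads assigned to genes, and the same gene, Eef1a1, had the most reads in every one of them. Naive ES markers were high throughout, with Pou5f1 between 1149.5 and 1378 CPM (reads of the gene scaled to library size) and a marker sum of 5092 to 5637 CPM. Primitive endoderm markers summed to 4.32 CPM or less, fibroblast markers to 3.66 CPM or less, and Lum was at 0 in all 6 libraries. Mesoderm markers summed to 24.39 CPM or less and trophectoderm markers to 17.44 CPM or less. Primed markers summed to 119.3 to 126.3 CPM in the degron libraries and 145.1 to 146.4 CPM in the controls. The 6 neural markers summed to 86.5 to 90.3 CPM in the degron libraries and 69.8 to 82.2 CPM in the controls. Of the 5 tested, only 1 had a log2 fold change above 0, and their median was -0.105. That gene, Tubb3, a neuronal tubulin, was called higher (log2 fold change 0.29, adjusted p = 0.0473; adjusted for length and GC 0.19, adjusted p = 0.0219), and its part in the results was not tested. Control 3 stood apart from its own group. Over genes of at least 10 CPM its log2 CPM correlated with control 1 and control 2 at 0.989, and with degron 2 at 0.994 (Pearson, across genes, which are not independent). Controls 1 and 2 correlated with each other at 0.996. The libraries also differed by transcript length and GC content. Long transcripts were relatively abundant in controls 1 and 2 and sparse in degron 1, degron 2 and control 3, while degron 3 was nearly flat (Spearman correlation of a library's deviation with length 0.53 and 0.56 in controls 1 and 2, -0.45, -0.57 and -0.25 in degron 1, degron 2 and control 3, and -0.01 in degron 3, across 8920 genes). GC content ran the other way, rising in degron 2 and control 3 (0.491 and 0.533) and falling in controls 1 and 2 (-0.604 and -0.488). The part of these gradients in the results was not tested beyond the comparisons given beside them. The labels do not say how replicates were made, but the study's methods describe biological replicates with plates of their own. The p-values measure the spread between these libraries, which may in part be technical. Because of the gradients, results are given beside the same fit with the length and GC trend of every library removed, a choice made after the data were seen, and beside the values without single libraries.

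**Figure D1:**
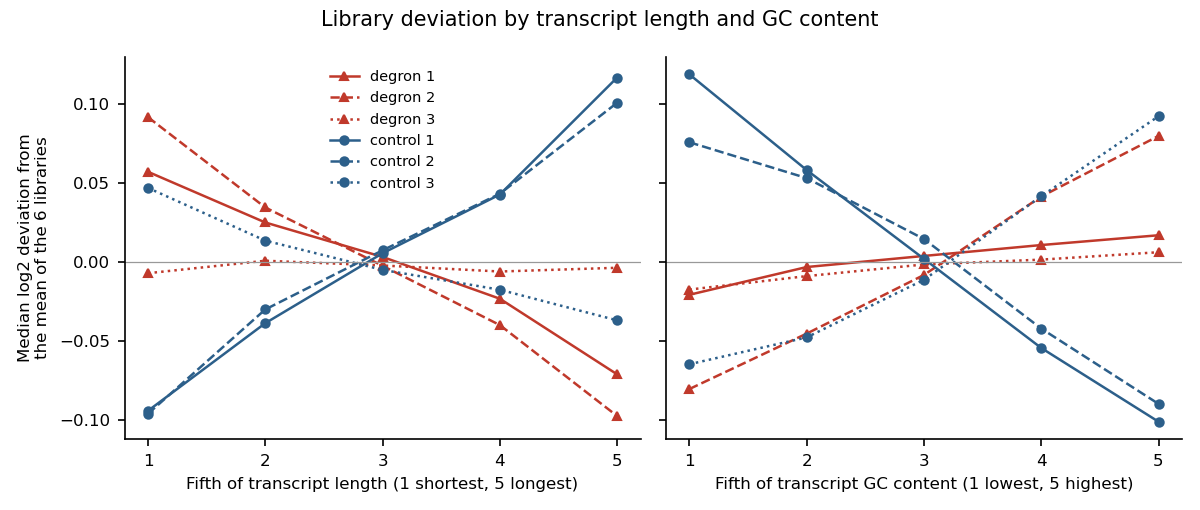
Median log2 deviation of each total RNA library from the mean of the 6 libraries (y axis) in quintiles of transcript length and of GC content (x axes), for 8920 genes of at least 10 CPM, with degron libraries as red triangles and controls as blue circles. In the longest quintile, control 1 lay at 0.117 and control 2 at 0.101, against -0.0974 in degron 2 and -0.0368 in control 3.

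Few genes were called with all 6 libraries, and most of their changes were small. Of 15380 genes tested, 191 were called higher after DDX6 loss (1.24% of those tested) and 318 lower (2.07%) at an adjusted p under 0.05 (edgeR quasi-likelihood test, Benjamini-Hochberg over all genes). An unadjusted p under 0.05 was reached by 2981 of the 15380. The median absolute log2 fold change of the called genes was 0.35, and 15 of them changed by at least 1 on the log2 scale, 7 upward and 8 downward. The median over all genes was 0.00798. With the length and GC trends removed, 515 genes were called higher (3.42% of 15045) and 635 lower (4.22%), and 442 of the 509 called genes were called again in the same direction. Groups that do not overlap were common, at 3530 of 15380 genes (23%), so separation of the groups alone marks nothing out, and 502 of the called genes had it. Leaving out control 3 raised the count to 3373. The count fell to 6 without degron 1, 68 without degron 2, 145 without degron 3, 86 without control 1 and 80 without control 2. In each of those fits all 509 genes kept the sign of their change. Hspa5, Manf, Ddit3, Lss, Srxn1 and Zmat3 passed the threshold in every one of them. With the length and GC trends removed, 303 genes passed with all 6 libraries and whichever library was left out, 129 higher and 174 lower.

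Ddx6 itself was read first. Its mRNA stood at 190.2, 186 and 197 CPM in degron 1 to 3 and at 237, 226 and 209.6 CPM in control 1 to 3, so the groups did not overlap. The degron libraries held 0.853 times the control level (log2 fold change -0.23 ± 0.06 SE, adjusted p = 0.0473). Adjusted for length and GC the value was -0.11 (adjusted p = 0.0567), and leaving out any library other than control 3 lost the call, with adjusted p between 0.0932 and 0.218. The degradation tag acts on the protein, so this mRNA does not show whether the protein was gone and cannot check the labels. Ddx6 (chr9:44604892-44640731, plus strand, mm10) was itself among the mRNAs enriched in P-bodies of naive cells.

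The gene lists with the highest medians were those of the endoplasmic reticulum (ER) stress and integrated stress responses. Lists and members were chosen with earlier results of these data known, so their counts and medians only describe the listed genes. In the first, unfolded protein in the ER activates the transcription factors XBP1, ATF6 and ATF4, which induce chaperones and degradation factors. In the second, kinases that phosphorylate eIF2α lower general translation while favoring translation of Atf4, whose product induces amino acid synthesis and transport genes together with Ddit3, Chac1 and Trib3. Of 21 ER and heat stress chaperone genes tested, 9 were called higher and 0 lower, with a median log2 fold change of 0.22 beside 0.00798 for all genes. Hspa5 (chr2:34771970-34777547, plus strand), which encodes the ER chaperone BiP, stood at 815, 783 and 813 CPM in degron 1 to 3 and 553, 570.2 and 492 CPM in control 1 to 3. The 3 degron libraries lay together, well above every control (mean 804 ± 17.8 SD against 538 ± 41.1 CPM, n = 3 each). The difference was 1.49-fold (log2 fold change 0.58 ± 0.06 SE, adjusted p = 0.000734; adjusted for length and GC 0.61). Manf, a secreted ER stress protein, rose from 110.0, 107 and 115 CPM in the controls to 169.7, 164 and 154 CPM (1.47-fold, 0.56 ± 0.06, adjusted p = 0.00079).

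Herpud1, a membrane component of ER-associated degradation, showed 28.7, 27.3 and 25.9 CPM after DDX6 loss against 17.97, 16.96 and 19.098 CPM. Its 1.51-fold difference (adjusted p = 0.00351) exceeded the range of the controls. Calr, the calcium-binding chaperone calreticulin, had controls close to each other, with 961, 934 and 931 CPM against 735, 733 and 736 CPM (1.28-fold, adjusted p = 0.00297). Xbp1, the transcription factor of this response, rose by 0.49 on the log2 scale (adjusted p = 0.00351), from 71.2, 77.5 and 80.4 to 105, 111 and 104 CPM. The remaining called members were Creld2 and Sdf2l1, both ER-resident, and the cytosolic heat shock genes Hspa1a and Hspa1b, which lie side by side, are nearly identical in sequence and so cannot be told apart with certainty. Of the heat shock genes, Hsph1, Dnajb1, Hsp90aa1, Hspa8, Hspb1, Hspe1, Hspd1 and Bag3 were not called. With length and GC adjusted, 12 of the 21 were called, all higher, and between 8 and 12 when any library was also left out. Without adjustment the count was 13 without control 3, 2 without degron 1 and between 5 and 7 without any of the other 4.

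Some sequences just upstream of these genes carry elements through which the ER stress response is known to act, and the mouse promoters of 4 called members are printed for that reason. Each is the 250 bases before the RefSeq transcription start (build GRCm38.p6, 5′ to 3′ on the gene's strand), in lower case with motif matches in capitals. The motifs searched were the ER stress element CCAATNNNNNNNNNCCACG, the related element ERSE-II, the amino acid response element TGATGNAA bound by ATF4 with C/EBP partners, and the sterol element TCACNCCAC, on both strands and allowing overlap. The windows lay at chr2:34771840-34772089 (Hspa5, plus), chr15:88819396-88819645 (Creld2, plus), chr8:84846932-84847181 (Calr, minus) and chr8:94386179-94386428 (Herpud1, plus).
Hspa5: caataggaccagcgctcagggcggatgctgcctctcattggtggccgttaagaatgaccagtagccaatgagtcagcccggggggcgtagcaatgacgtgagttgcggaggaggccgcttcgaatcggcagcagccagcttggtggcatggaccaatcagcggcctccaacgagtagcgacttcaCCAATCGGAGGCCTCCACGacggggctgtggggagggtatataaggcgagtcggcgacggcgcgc
Creld2: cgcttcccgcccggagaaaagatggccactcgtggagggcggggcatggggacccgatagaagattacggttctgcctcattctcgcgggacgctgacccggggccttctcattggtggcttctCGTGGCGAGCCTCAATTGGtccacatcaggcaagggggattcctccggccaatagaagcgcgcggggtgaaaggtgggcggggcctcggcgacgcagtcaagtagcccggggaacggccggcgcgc
Calr: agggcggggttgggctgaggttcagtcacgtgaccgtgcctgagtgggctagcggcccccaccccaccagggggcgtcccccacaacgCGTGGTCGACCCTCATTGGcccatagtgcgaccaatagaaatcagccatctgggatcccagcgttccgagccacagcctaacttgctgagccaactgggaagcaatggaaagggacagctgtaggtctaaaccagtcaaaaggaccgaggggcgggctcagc
Herpud1: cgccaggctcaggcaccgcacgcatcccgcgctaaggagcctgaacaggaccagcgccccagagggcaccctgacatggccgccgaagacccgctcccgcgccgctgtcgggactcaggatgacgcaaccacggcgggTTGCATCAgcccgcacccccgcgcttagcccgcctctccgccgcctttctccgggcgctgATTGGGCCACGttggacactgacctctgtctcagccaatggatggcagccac
Hspa5 held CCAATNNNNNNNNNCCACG on its own strand, Creld2 and Calr held it on the opposite strand, and Herpud1 held ERSE-II on its own strand and TGATGNAA on the other. Counting from 250 bases before to 50 after the start, the first motif occurred in 3 of 8 called chaperone genes with a promoter sequence and in 4 of all 18, beside 21 of 12115 tested genes (0.173%). A match of letters is a description and does not show that a factor was bound.

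Of 28 genes on the ATF4 and integrated stress response list, 11 were called higher and 0 lower, with a median log2 fold change of 0.26, and 25 of the 28 lay above 0. Ddit3 (chr10:127290774-127296288, plus strand), which encodes the pro-apoptotic factor CHOP, showed the largest rise among well-expressed members. It stood at 41.5, 40.2 and 40.5 CPM in degron 1 to 3 against 20.6, 22.9 and 25.6 CPM (mean 40.7 ± 0.699 SD against 23.0 ± 2.52 CPM, n = 3 each), a 1.77-fold difference (0.82 ± 0.08 SE, adjusted p = 0.000734; adjusted for length and GC 0.69). Chac1, which degrades glutathione, rose from 16.2, 18.1 and 20.2 to 32.7, 27.8 and 28.9 CPM (1.64-fold, adjusted p = 0.00351). Trib3, a pseudokinase that dampens the response, rose from 43.5, 42.9 and 51.8 to 70.4, 65.5 and 64.2 CPM (1.45-fold, adjusted p = 0.00637). Cebpb, a dimer partner of ATF4, rose from 8.78, 8.67 and 9.09 to 13.6, 15.5 and 12.6 CPM (1.57-fold, adjusted p = 0.00813). In all 4 genes the lowest degron library lay above the highest control.

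Atf4 mRNA rose as well, more modestly, from 329, 323 and 355 to 411, 422 and 411 CPM (1.24-fold, adjusted p = 0.0102). The other called members were Ddit4, an inhibitor of mTORC1, Atf3, Nupr1 and Vldlr, and the metabolic genes Mthfd2 and Pck2. The amino acid branch of the list was uneven. Asns, asparagine synthetase, did not differ beyond its spread (1102, 1037 and 1032 against 1014, 1073 and 1051 CPM, log2 fold change 0.01, adjusted p = 0.898). Psat1 and Psph of serine synthesis gave 0.17 and 0.28, were not called here and passed with adjustment for length and GC (adjusted p = 0.00828 and 0.0265). Under that adjustment 14 of the 28 were called, all higher, and between 9 and 19 with any library also left out. Without it, 21 were called without control 3, 1 without degron 1, and 3 to 7 without any of the other 4.

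Among genes called higher on this list, TGATGNAA lay in the promoter of 6 of 11 and among all tested members in 8 of 24, beside 2.81% of 12115 genes. Windows for Chac1 (chr2:119350992-119351241, plus) and Atf3 (chr1:191183334-191183583, minus) are given as examples, capitals marking that motif.
Chac1: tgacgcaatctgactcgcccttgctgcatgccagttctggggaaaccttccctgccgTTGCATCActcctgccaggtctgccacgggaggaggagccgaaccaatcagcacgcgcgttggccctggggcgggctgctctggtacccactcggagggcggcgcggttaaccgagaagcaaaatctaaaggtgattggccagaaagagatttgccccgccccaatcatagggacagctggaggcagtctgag
Atf3: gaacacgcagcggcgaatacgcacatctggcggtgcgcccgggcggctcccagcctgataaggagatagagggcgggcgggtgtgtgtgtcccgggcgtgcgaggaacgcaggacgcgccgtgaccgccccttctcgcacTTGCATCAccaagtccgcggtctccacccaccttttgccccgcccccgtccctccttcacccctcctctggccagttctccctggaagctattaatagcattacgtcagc
In Chac1 and in Atf3 the match reads on the strand opposite to the gene.

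**Figure D2:**
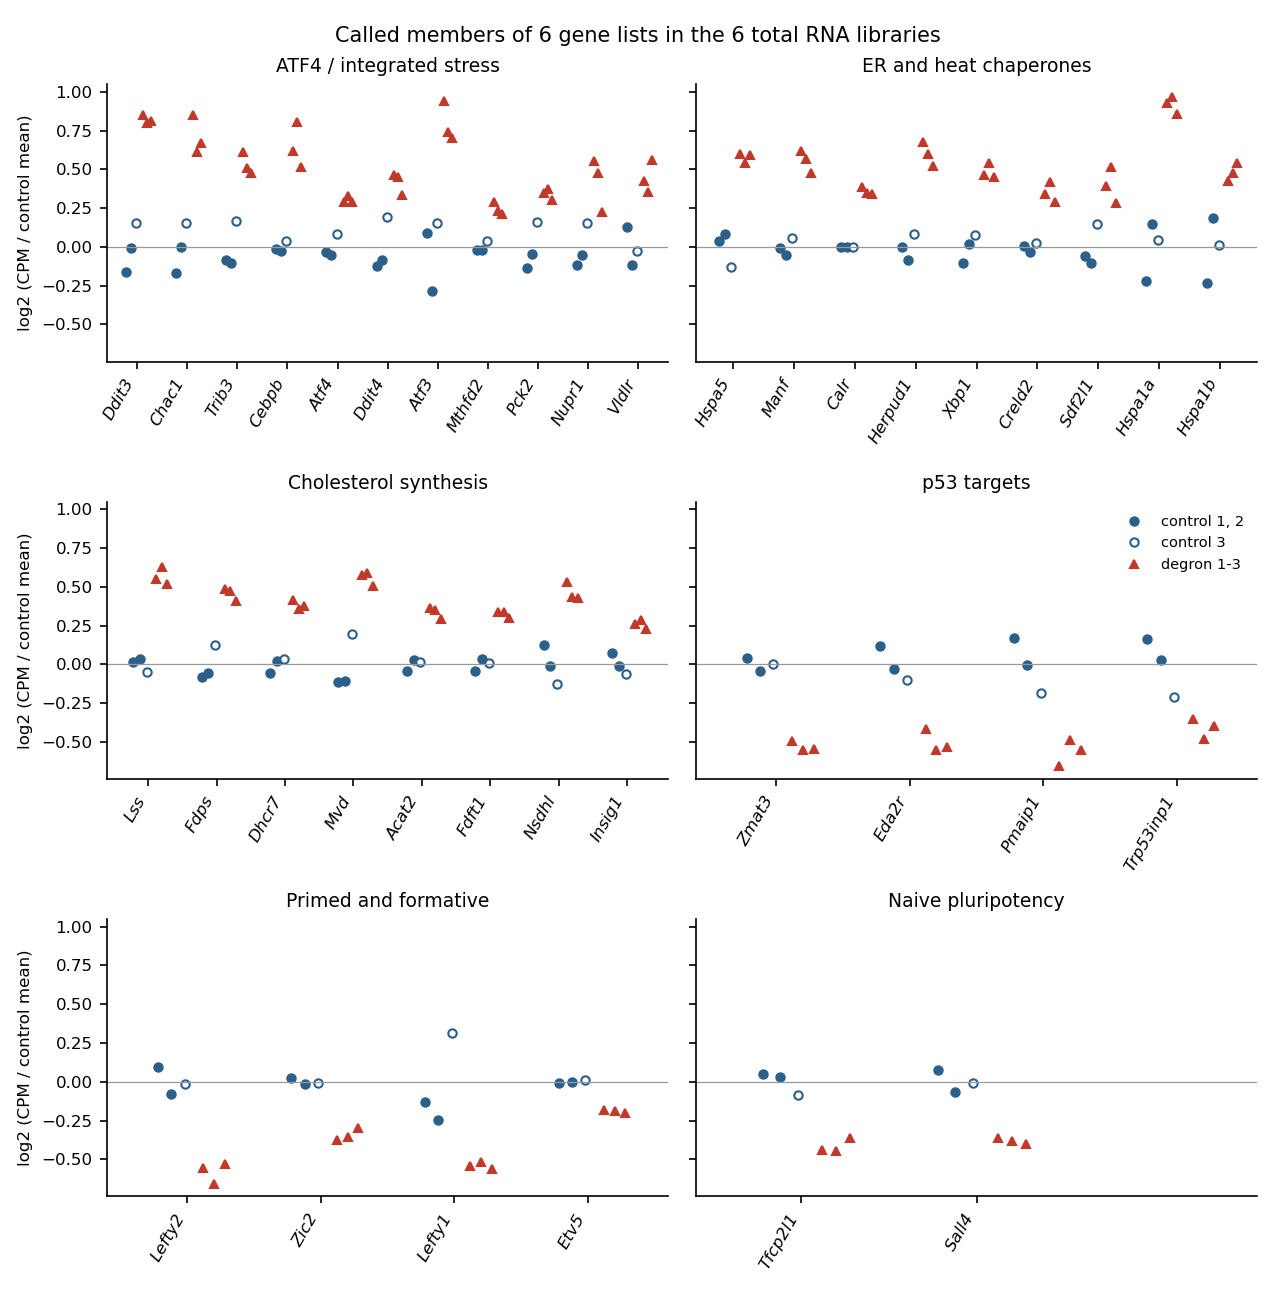
Called members, not all of them drawn, of 6 gene lists in each total RNA library, as log2 of CPM over the mean of the 3 controls (y axis), with controls 1 and 2 as filled circles, control 3 as an open circle and the 3 degron libraries as triangles. In every gene drawn the triangles and circles do not overlap, with Ddit3 at a mean of 40.7 against 23.0 CPM and Zmat3 at 128 against 185 CPM.

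Many of the cholesterol synthesis genes listed were higher. This pathway makes sterols from acetyl-CoA and is induced by the transcription factor SREBP2 when ER membranes are short of cholesterol. Of 21 genes tested, 9 were called higher and 0 lower, and all 21 log2 fold changes were above 0, with a median of 0.21. Lss (chr10:76531588-76557138, plus strand), lanosterol synthase, stood at 104, 110.2 and 102 CPM in degron 1 to 3 and at 72.0, 73.1 and 69.1 CPM in control 1 to 3, a 1.48-fold difference (0.56 ± 0.06 SE, adjusted p = 0.00079). Mvd, which makes isopentenyl diphosphate, rose from 61.0, 61.3 and 75.4 to 98.4, 99.0 and 93.7 CPM (1.47-fold, adjusted p = 0.00501). Fdps, farnesyl diphosphate synthase, rose from 301, 306 and 346 to 445, 441 and 422 CPM (1.37-fold, adjusted p = 0.00351). Dhcr7, the last enzyme of the Kandutsch-Russell branch, rose from 99.1, 105 and 105 to 137, 132 and 134 CPM (log2 fold change 0.38, adjusted p = 0.00501). Acat2, Fdft1, Nsdhl and Insig1, which retains SREBP in the ER, were called as well.

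Other members did not pass the test. Sqle, squalene epoxidase, gave 0.06 (adjusted p = 0.597). Srebf2 itself, at 423, 425 and 425 against 394, 389.8 and 429 CPM, overlapped between groups. Adjustment for length and GC gave 14 of 21 called, all higher, and 12 to 15 with any library also left out. Without adjustment 13 were called without control 3, 1 without degron 1, and 7 or 8 without any of the other 4. The sterol element TCACNCCAC lay in 1 of 13 of these promoters, that of Hmgcs1, beside 1.44% of tested genes.

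Some targets of p53 were lower. Of 23 tested, 4 were called lower and 0 higher, with a median of -0.13. Zmat3 (chr3:32334792-32366014, minus strand), an RNA-binding tumor suppressor induced by p53, was among the most clearly separated genes of the comparison, at 131, 126 and 127 CPM in degron 1 to 3 and 190.4, 180.4 and 186 CPM in control 1 to 3. The degron libraries held 0.692 times the control level (-0.53 ± 0.05 SE, adjusted p = 0.000734; adjusted for length and GC -0.41, adjusted p = 0.000243). Eda2r, a death receptor, fell from 44.9, 40.6 and 38.7 to 31.1, 28.2 and 28.6 CPM (adjusted p = 0.00652). Pmaip1, which encodes the BH3-only protein NOXA, fell from 27.7, 24.6 and 21.7 to 15.6, 17.6 and 16.8 CPM (adjusted p = 0.00904). Trp53inp1 was the fourth (-0.41, adjusted p = 0.0196).

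Other p53 targets did not pass the test. Cdkn1a, the cell cycle inhibitor p21, stood at 317, 348 and 324 CPM against 301, 299 and 338 CPM, and the groups overlapped (0.08, adjusted p = 0.507). Mdm2 and Trp53 gave -0.23 and -0.13, were not called here and were called lower with length and GC adjusted (adjusted p = 0.00871 and 0.00134). In that fit 11 of 23 were called lower and 0 higher, and 7 to 11 lower with any library also left out, with 1 higher without control 3. Without adjustment and without control 3 the list split into 10 lower and 3 higher. It fell to 1 lower without degron 1, and was 3 lower without any of the other 4.

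Pluripotency genes shifted by little and mostly downward. Of 23 naive pluripotency genes, 2 were called lower. Tfcp2l1, a transcription factor of the naive network, stood at 511, 508 and 539 CPM after DDX6 loss and 717, 709 and 653 CPM in controls (0.749 times the control, -0.42 ± 0.05 SE, adjusted p = 0.00333; adjusted for length and GC -0.27). Sall4 stood at 199, 196 and 193 CPM against 269, 244 and 254 CPM (-0.38 ± 0.05 SE, adjusted p = 0.00501). The core factors moved less than this. Pou5f1 (0.04), Nanog (-0.08), Prdm14 (-0.04) and Dppa3 (-0.01) were not called in either fit. Sox2 (-0.13), Esrrb (-0.12), Klf4 (-0.13), Zfp42 (-0.12) and Tbx3 (-0.20) were not called here and were called lower with length and GC adjusted, where 11 of 23 were. Klf4, Zfp42 and Tbx3 also passed without control 3 (adjusted p = 0.0323, 0.0174 and 0.00476), and Tbx3 passed with DESeq2 (adjusted p = 0.0339). Pou5f1 passed without control 3 too, but as higher (adjusted p = 0.0293). The count with adjustment was between 4 and 11 with any library also left out. Without adjustment it was 9 lower and 2 higher without control 3 and 0 without degron 1.

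On the list of primed and formative genes, 5 of 21 were called lower and 0 higher, with a median of -0.19. Lefty2, a secreted NODAL antagonist and NODAL target, stood at 17.2, 16.0 and 17.5 CPM against 27.0, 23.9 and 25.0 CPM (0.669 times the control, -0.58 ± 0.08 SE, adjusted p = 0.00397). Its neighbor Lefty1 stood at 15.1, 15.4 and 14.9 CPM against 20.1, 18.6 and 27.4 CPM (adjusted p = 0.0338), the 3 degron values lying closer together than the controls. The transcription factor Zic2 (0.789 times the control, adjusted p = 0.00888) and the ERK target Etv5 (0.876 times, adjusted p = 0.0427) were called too. Nodal gave -0.13 (adjusted p = 0.361). Fgf5, at no more than 0.14 CPM, and Otx2, at no more than 1.88 CPM, were near the limit of detection. Adjustment for length and GC gave 6 of 21 lower, and 5 to 7 with any library also left out. Without it, 6 were called without control 3 and 0 without degron 1.

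Genes of the 2-cell-like state, which marks a rare ES cell population resembling the early embryo, had 0 of 28 called either way. Their median was -0.18, 9 had an unadjusted p under 0.05, and 4 were called lower by DESeq2. Without control 3, 1 was called higher and 8 lower, and none were when any other library was left out. Zscan4c stood at 65.3, 60.4 and 70.0 CPM in degron 1 to 3 and at 84.1, 76.5 and 70.4 CPM in control 1 to 3 (-0.24 ± 0.08 SE, adjusted p = 0.107). Zscan4d gave -0.26 (adjusted p = 0.0802), with 30.7, 32.3 and 35.4 CPM against 41.9, 39.3 and 36.9 CPM. Zfp352 gave -0.09. With length and GC adjusted, Zscan4a, Zscan4b, Zscan4c, Zscan4d, Zscan4f and Tmem92 were called lower (6 of 27), and between 0 and 8 were lower with any library also left out, 0 of them without degron 1 or degron 2. Leaving out control 3 from that fit also gave 1 higher. Members of the Zscan4 cluster are near-identical, so reads are shared among them and their values are not independent.

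Immediate-early and other unstable mRNAs are known for fast decay. Of 40 tested, 2 were called higher and 4 lower, with a median of 0.04. Atf3 and Maff rose by 0.80 and 0.75 (adjusted p = 0.0247 and 0.0439). Ccn2, at 14.2, 15.1 and 15.4 CPM against 23.2, 21.1 and 24.0 CPM, fell to 0.656 times the control (adjusted p = 0.00351), and Ccn1, at 16.0, 19.9 and 17.8 CPM against 24.6, 23.1 and 24.2 CPM, fell to 0.750 times (adjusted p = 0.0241). Both encode secreted matrix proteins that are targets of YAP and TEAD. Sgk1 and Mcl1, a kinase and an anti-apoptotic protein, fell by 0.29 and 0.23. Egr1 and Fos were at no more than 0.551 and 2.76 CPM, and Myc was at no more than 1.52 CPM. Without control 3, 9 were called higher and 6 lower, and without degron 1, none of the 40. DESeq2 called 4 in each direction. After adjustment for length and GC, 5 were called higher and 5 lower, and the median was -0.00604.

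Few mRNAs for the decay machinery itself were called with all 6 libraries, and more were without control 3. Of 27 P-body core and decapping genes, 2 were called lower, Ddx6 and Dcp2, with a median of 0.02. Dcp2, the decapping enzyme, stood at 188, 183 and 211 CPM against 268, 252 and 232 CPM (-0.37 ± 0.07 SE, adjusted p = 0.0159; adjusted for length and GC -0.21, adjusted p = 0.00429). The 5′ to 3′ exonuclease Xrn1 gave -0.21 (adjusted p = 0.257) with control 3 at 42.6 CPM inside the degron range of 40.7 to 47.6 CPM. Edc3 (0.04), Edc4 (0.00), Lsm14a (0.00), Patl1 (-0.12), Eif4enif1 (-0.05) and Dcp1a (-0.20) were not called. Of 23 CCR4-NOT and deadenylation genes, Pan3 was called lower (-0.30, adjusted p = 0.0458). Of 12 nonsense-mediated decay factors, 2 were, among them the kinase Smg1 (-0.41, adjusted p = 0.0269). Of 16 microRNA machinery genes, 0 were called, their median was -0.15, 7 had an unadjusted p under 0.05, and 4 were called by DESeq2. Ago2 gave -0.17 (adjusted p = 0.134) and Tnrc6b -0.28 (adjusted p = 0.073). These transcripts are long, with a median of 6882 nucleotides for the microRNA machinery against 3046 over all genes, and their adjusted median was -0.00489. Without degron 1, none of these genes was called. Without control 3, 3 P-body core genes were called higher and 6 lower, 1 and 8 of the CCR4-NOT genes, 0 and 3 of the nonsense-mediated decay factors, and 1 and 6 of the microRNA machinery. With length and GC adjusted the counts were 0 and 1, 1 and 2, 0 and 2, and 1 and 2.

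DDX6 acts with microRNAs, so genes were also grouped by matches to the seeds of microRNA families known in ES cells and their derivatives. The mature sequences (RefSeq, GRCm38.p6) show the shared seed, bases 2 to 8, in capitals. The let-7 family is kept low in ES cells by LIN28, and the miR-290 cluster is abundant there. The mature sequences lie at chr13:48538239-48538260 (let-7a, minus), chr9:106178846-106178867 (let-7g, plus), chr7:3218968-3218989 (miR-291a, plus), chr7:3220691-3220712 (miR-294, plus) and chr7:3220815-3220837 (miR-295, plus).
let-7a-5p: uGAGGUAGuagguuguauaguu
let-7g-5p: uGAGGUAGuaguuuguacaguu
miR-291a-3p: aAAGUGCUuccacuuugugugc
miR-294-3p: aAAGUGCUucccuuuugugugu
miR-295-3p: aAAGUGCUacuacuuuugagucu
The complements CTACCTC and AGCACTT were counted in the longest coding transcript's 3′ untranslated region for genes of at least 1 CPM. Genes with 0, 1 and at least 2 let-7 matches (10443, 1119 and 171 genes) had median log2 fold changes of 0.00767, -0.0193 and -0.0358. For miR-290 matches (9630, 1688 and 415 genes) the medians were 0.0108, -0.0172 and -0.034. For the AU-rich element TATTTAT they were 0.0236, -0.0332 and -0.0748. The order turned with adjustment for length and GC, to 0.00269, 0.0232 and 0.0397 for let-7, to -0.000965, 0.0236 and 0.0561 for miR-290, and to 0.00305, 0.00612 and 0.0165 for TATTTAT. The regions differed in length, at a median of 1087, 2296 and 3672 bases for the let-7 classes. Length and these classes move together, and their parts in the medians were not tested apart.

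Of 27 let-7 targets, Sall4, Igf2bp1 and Cdk6 were called lower and none higher, and Lin28a gave -0.22 (adjusted p = 0.135). Igf2bp1, an mRNA-binding protein, stood at 338, 350.5 and 350.5 CPM against 436, 413 and 409 CPM (adjusted p = 0.0136). Without control 3, 3 let-7 targets were called higher and 11 lower, without degron 1 none, and without any of the other 4 libraries 1 or 2 lower. Adjusted for length and GC, 1 was called higher and 5 lower, and Cdk6 lost its call (-0.14, adjusted p = 0.212). Of 14 targets of the miR-290 family, the GTPase Rhoc was called higher (47.8, 46.6 and 43.7 against 35.8, 34.5 and 41.2 CPM, adjusted p = 0.0478) and 0 lower. Cdkn1a and Lats2 gave 0.08 and -0.41 and were not called. Rhoc lost its call with adjustment (adjusted p = 0.0622), and 0 of the 14 were called in that fit. Without control 3, 3 were called higher and 1 lower, and none were when any other library was left out.

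The other lists had few calls with all 6 libraries, apart from the numbered Zfp genes. Of 84 cytosolic ribosomal protein genes, Rpl30 was called higher, and of 78 mitochondrial ribosomal protein genes, 0, with an unadjusted p under 0.05 in 18 and 1 call by DESeq2. Their medians of 0.09 and 0.10 were -0.0111 and 0.0344 after adjustment, so the direction of the first was lost. Without control 3, 54 and 31 of them were called higher. For 57 replication-dependent histone genes, 25 interferon-stimulated genes, 18 germline genes and 18 snoRNA host genes the count was 0. Unadjusted p under 0.05 was reached by 5, 4, 2 and 4 of them, and DESeq2 called 0, 0, 0 and 1. Without control 3, 7 of the 18 snoRNA host genes were called higher, 3 histone genes were higher and 1 was lower, and 1 interferon-stimulated and 1 germline gene were lower. With length and GC adjusted, 1 of 15 snoRNA host genes, 0 of 7 histone genes, 1 of 25 interferon-stimulated genes and 0 of 18 germline genes were called, all higher. Aldoc and Pfkp of glycolysis were higher among 24 genes, and Tet1 was lower among 9 DNA methylation genes, where Dnmt3b (-0.09) and Tet2 (-0.24) were not called. Without control 3, 7 glycolysis genes were higher and 1 lower, and 4 DNA methylation genes were lower. Without degron 1, none of either list was called. Of 349 numbered Zfp genes, 29 were called lower (Zfp462 and Zfp987 with the smallest p after Zfp967) and 0 higher, and 28 of the 29 were mRNAs enriched in naive P-bodies, as were 235 of all 349 (67.3%). With adjustment 43 were lower and 2 higher. Without adjustment the count rose to 97 without control 3, with 8 higher, and fell to 0 without degron 1.

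**Figure D3:**
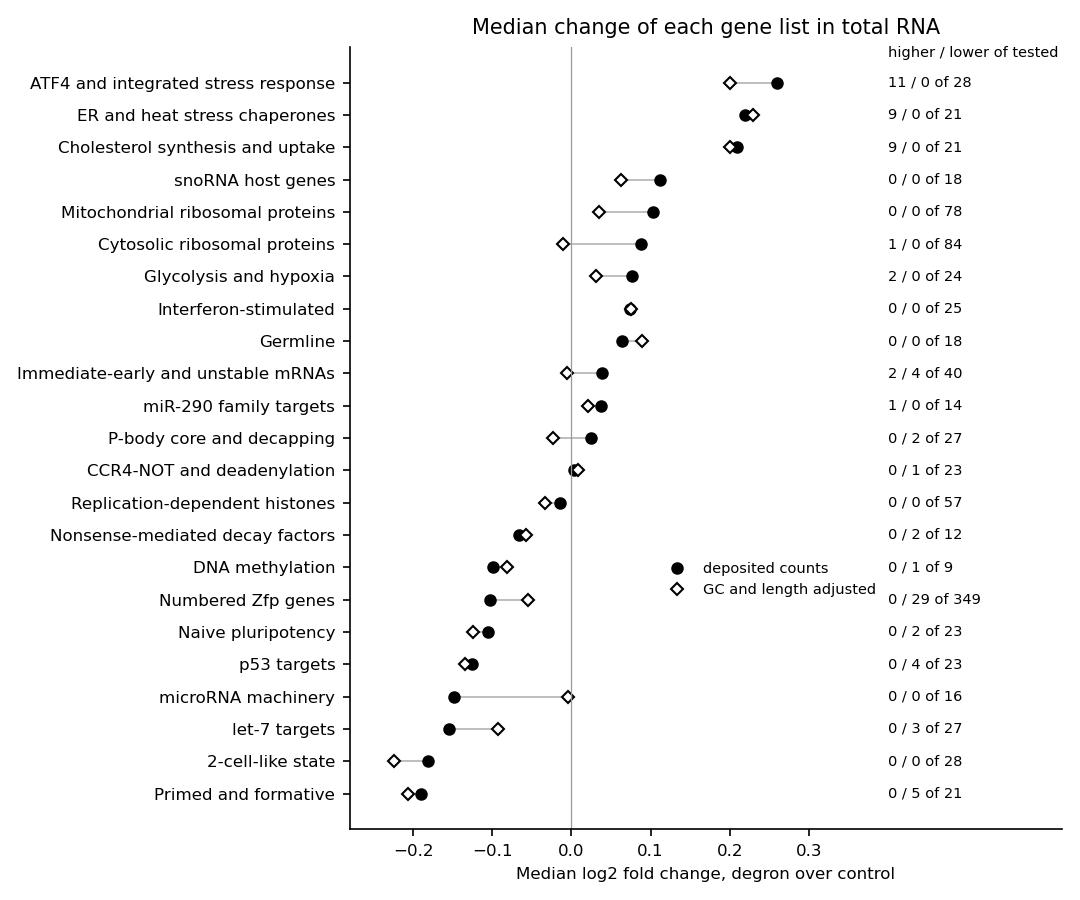
Median log2 fold change of each gene list in total RNA, degron over control (x axis), from the deposited counts (filled circles) and with library trends of GC content and transcript length removed (open diamonds); numbers at the right give members called higher and lower of those tested. The 3 lists at the top, at 0.26, 0.22 and 0.21, stay above the others in both, while microRNA machinery and ribosomal proteins move to about 0. Lists were chosen with earlier results of these data known.

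Outside the lists, the genes with the largest changes among those of at least 5 CPM and with separated groups were of mixed kinds. Plekhh3 rose most (9.73, 10.3 and 8.40 against 5.33, 5.18 and 5.49 CPM, 1.77-fold, adjusted p = 0.00637). Cbr3, a carbonyl reductase, rose 1.64-fold from 16.2, 17.7 and 21.3 to 28.3, 32.9 and 28.9 CPM (adjusted p = 0.005), and Srxn1, sulfiredoxin, rose 1.43-fold from 62.1, 63.0 and 59.8 to 84.9, 90.8 and 89.0 CPM (adjusted p = 0.00178). Both are known targets of the oxidative stress factor NRF2. Fkbp11, an ER prolyl isomerase, Pacsin3, Mef2b, Prss8, AI413582 and Gm44504 were also in this group, the last without a transcript model here.

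In the other direction, Sp8 (8.98, 7.97 and 7.76 against 15.5, 13.6 and 12.9 CPM, 0.585 times the control, adjusted p = 0.00501) and Mep1b, a metalloprotease (12.5, 11.9 and 13.5 against 23.5, 20.1 and 20.1 CPM, 0.595 times, adjusted p = 0.00297), fell most after Zfp967 and Gm14434. Zdbf2, an imprinted gene, and Mitf fell to 0.656 and 0.675 times the control, and Tmem265, A930004D18Rik, Nfkbiz and Slc5a1 were also in this group. Zfp967 (5.26, 9.91 and 4.85 against 15.3, 16.8 and 18.3 CPM) and Gm14434 are genes on chromosome 2 with relatives of similar sequence. Gm14434 had 0 reads in all 3 degron libraries and 17.6, 2.07 and 37.7 CPM in the controls, at least 138-fold lower against a floor of 3 reads per library, yet its polysome-bound RNA stood at 19.0, 1.99 and 30.3 CPM in degron 1 to 3 and at 20.1, 0 and 0 CPM in control 1 to 3. Since the counts were estimated by sharing reads among similar transcripts, these values are uncertain.

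The design also allows the change to be read against where an mRNA sat before DDX6 was removed. P-body and cytoplasm fractions of naive ES cells, 2 libraries each and prepared by another protocol, gave 3528 genes enriched in P-bodies (22.6% of 15630 tested) and 2413 depleted (15.4%). Of the enriched genes tested in total RNA, 12 of 3457 were higher after DDX6 loss (0.347%) and 174 lower (5.03%), with a median log2 fold change of -0.08. Of 2371 depleted genes, 65 were higher (2.74%) and 29 lower (1.22%), with a median of 0.07. Genes in neither class had a median of 0.03. Enrichment in P-bodies and change in total RNA correlated at -0.40 (Spearman, across 9024 genes).

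This difference moved with the libraries' own gradients. Enriched mRNAs had a median length of 4010 nucleotides and a GC content of 44.1%, against 2772 and 55.6% for depleted ones. The median of enriched minus depleted genes, taken per library against the mean of all 6, was -0.056, -0.145 and -0.0128 in degron 1 to 3 and 0.188, 0.145 and -0.111 in control 1 to 3. Control 3 lay among the degron libraries. The group means were -0.0713 ± 0.0674 SD and 0.074 ± 0.162 SD (exact permutation test, two-sided p = 0.3). With 3 against 3 this p cannot go below 0.1, so the test cannot decide whether the groups differed. It was run on values without adjustment for length and GC. With length and GC adjusted, the medians were -0.0148 and 0.0194 and the correlation was -0.105. In that fit 128 enriched genes were higher (3.77%) and 256 lower (7.53%), beside 3.57% and 4.4% over all classes. Of depleted genes, 121 were higher (5.17%) and 87 lower (3.72%). The part of length and GC in the difference cannot be told apart from that of P-body enrichment here. A loss of P-body RNA when the lysates were cleared was not tested either. Inside quintiles of length the order remained, at 0.0293 and 0.108 for enriched and depleted genes in the shortest quintile and -0.144 and -0.0572 in the longest.

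**Figure D4:**
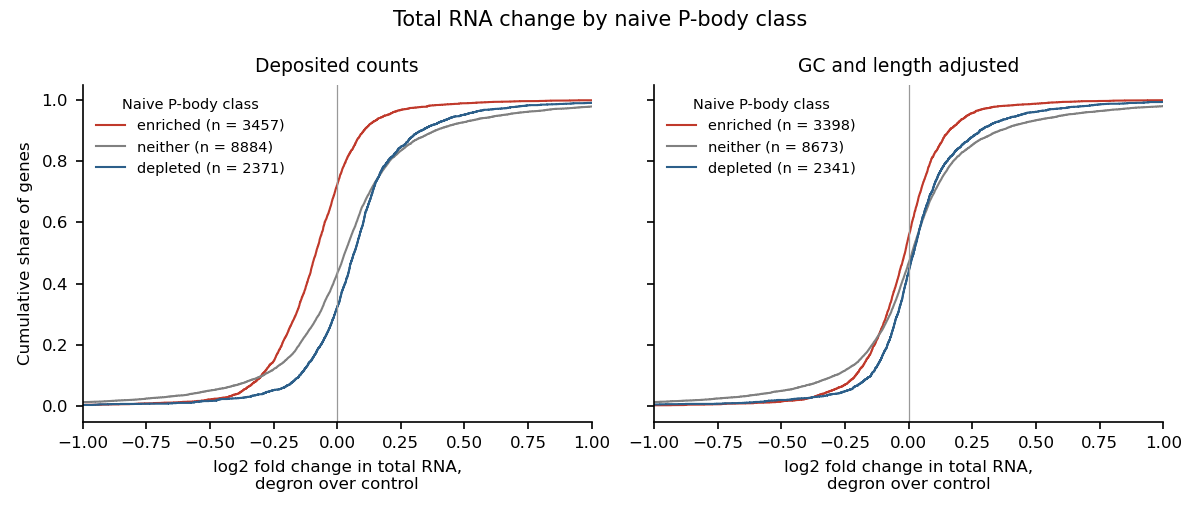
Cumulative share of genes (y axis) by log2 fold change in total RNA, degron over control (x axis), for mRNAs enriched in, depleted from and in neither class of naive P-bodies, from the deposited counts and with GC and length trends removed. In the panel of deposited counts, 3457 enriched genes have a median of -0.0836 and 2371 depleted genes one of 0.0662, and after adjustment the medians lie at -0.0148 and 0.0194.

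The remainder of each lysate had been run on a sucrose gradient, and RNA of the pooled fractions that held ribosomes was sequenced in separate libraries. The study does not state that single ribosomes were left out of this pool, which is called polysome-bound here after the sample titles. In that fraction 298 of 15625 genes were called higher (1.91%) and 368 lower (2.36%). Both fractions come from the same harvests, so they do not test each other independently. Of the 509 genes called in total RNA, 493 had the same sign in polysome-bound RNA, 218 were called there in the same direction and 0 in the opposite one. Among the 62 named genes called in total RNA, 33 were called in polysome-bound RNA.

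Stress and sterol genes were higher there too. Ddit3 gave 0.80 (adjusted p = 4.34e-05) and Trib3 0.52, Hspa5 0.46 and Manf 0.44. Mvd gave 0.64 and Fdps 0.48. On the lists, 13 of 28 ATF4 genes, 7 of 21 chaperones and 13 of 21 sterol genes were higher in polysomes, with 1, 1 and 0 lower. Lefty2 (-0.59), Lefty1 (-0.78) and Ccn2 (-0.65) were lower in both. Zmat3 (-0.28, adjusted p = 0.0699), Tfcp2l1 (-0.18), Sall4 (-0.17) and Tet1 (-0.14) were not called in polysomes. Whether the size of any change differed between the fractions was not tested.

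**Figure D5:**
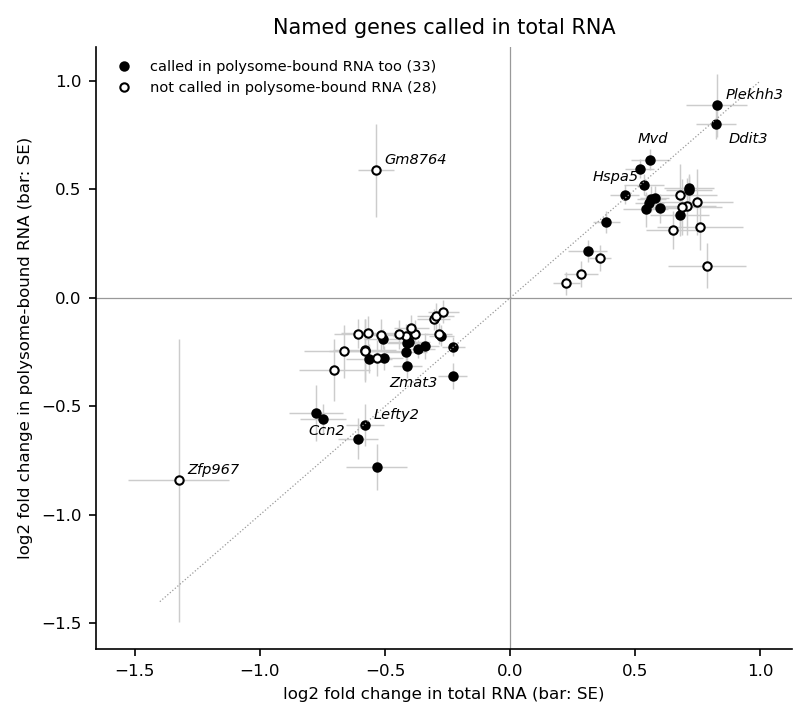
Log2 fold change in polysome-bound RNA (y axis) against total RNA (x axis) for named genes called in total RNA, with SE bars, filled where called in both fractions; Gm14434 lies outside the plotted range and the dotted line marks equal change. All but 1 of the genes drawn have the same sign in both fractions, and the exception, Gm8764, gives -0.54 in total and 0.59 in polysome-bound RNA.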

How the data were processed

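Total RNA of 3 DDX6-degron and 3 control libraries was analysed. Estimated counts per gene had been made by the authors with the nf-core RNA-seq pipeline and salmon on mm10 and deposited as 1 table of 25229 genes. They were rounded to whole numbers here. Sharing of reads among similar transcripts in that step makes values of close paralogs uncertain. Genes with at least 10 reads over the 6 libraries were tested with the quasi-likelihood test of edgeR 4.0.16 (R 4.3.3) after TMM scaling, and called at a Benjamini-Hochberg adjusted p under 0.05. CPM were computed on TMM-scaled library sizes. Polysome-bound libraries of the same lysates were fitted apart. Naive P-body and cytoplasm libraries, whose deposited counts per gene the authors made with HISAT2 and featureCounts, were rounded and fitted in the same way. DESeq2 1.42.0, other scalings and filters, a replicate block and omission of each library were alternatives. The adjustment for GC content and transcript length (natural splines with 5 degrees of freedom per library, as offsets in edgeR) was chosen after the data were seen. Depth was 17562469 to 26614353 reads, and precision rests on 3 libraries a group. The scripts were tested on simulated data.

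Named genes were a fixed set, the 12 largest changes and the 6 smallest adjusted p in each direction among called genes of at least 5 CPM with separated groups, and the 2 to 4 members of each list with the smallest adjusted p. Further list members are named where a count is spelled out, and some genes that the rule names are not reported here. Members and lists were chosen with earlier results of these data known. Replicate numbers were not taken to pair the libraries. The study's methods place the harvest of control cells alongside that of treated cells, and the labels do not say whether the numbers match. Tables of the authors' own comparisons, which hold fold changes and p-values, were not used.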

Additional observations from a re-analysis of the deposited data

How the results depend on the processing

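Of the 509 genes called in total RNA, none changed direction in any alternative in which it was tested. The number called was 832 with DESeq2, where 4777 genes had no adjusted p, 863 with no filter beyond 1 read, 1138 with all 12 total and polysome-bound libraries in 1 fit, 1150 with GC content and length adjusted, 66 at an adjusted p under 0.01 and 15 with an absolute log2 fold change of at least 1. It ranged from 6 to 3373 when a library was left out, and from 407 to 1799 when this was done with GC content and length adjusted. With the replicate number as a block, 82 genes were called. Same-numbered libraries did not deviate together (correlations -0.00501, -0.241 and -0.322), so the numbers were not taken to pair the libraries. These deviations also hold the length and GC gradients, so the correlations cannot exclude pairing. Over the gene lists, 86 members were called, 30 with the replicate block, 150 with GC content and length adjusted, and 5 to 353 when a library was left out. The immediate-early list, with more members lower than higher, turned to 15 called without control 3, 9 of them higher, and ranged down to 0 without degron 1, and it had 5 called in each direction with GC content and length adjusted. The cause of these differences was not tested. Named genes kept their side of the threshold in 1107 of their alternatives, passed it in 85 and lost it in 188. No gene called in the main fit or in the alternative changed direction between them. Genes called in neither could change sign, as Dppa3 did (-0.0711 to 0.0485 without single libraries). The median change of P-body enriched less depleted genes, -0.15, was -0.0342 with GC content and length adjusted and -0.246 to -0.0865 without single libraries. Without single libraries the count in polysome-bound RNA, 33, ranged from 22 to 38, and the length gradient, 0.207, from 0.154 to 0.308. Depth limits the rarest genes, where the standard error of the log2 fold change reached 0.88 for Fgf5, against 0.04 for Calr.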

Other observations

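The genes below belong to no list above and were chosen after their values were seen, so they are given as values only. Factors of ER-associated degradation and folding were called higher, among them the ubiquitin ligase Syvn1 (41.3, 41.4 and 41.0 against 30.0, 31.5 and 30.8 CPM, adjusted p = 0.00645), Os9 (log2 fold change 0.35), Dnajb11 (0.28) and Pdia6 (0.28). The autophagy receptor Sqstm1 stood at 236, 241 and 229 CPM against 170.2, 177 and 189 CPM (adjusted p = 0.005). Aminoacyl-tRNA synthetases Aars (0.18), Sars (0.23) and Nars (0.24) were called higher in total RNA and not in polysome-bound RNA. Lipid synthesis genes beside the sterol list were called higher as well, with Pmvk at 82.6, 81.6 and 76.8 CPM against 55.1, 55.1 and 61.6 CPM (adjusted p = 0.00465), Fads1 (0.34), Fads2 (0.28), Acss2 (0.31) and Fasn (0.19). Of genes known to respond to NRF2, Gclm (0.22) and Nqo1 (0.21) were called higher, while Txnrd1 (0.09, adjusted p = 0.335) and Hmox1 (0.05, adjusted p = 0.708) were not.

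Beside Ccn1 and Ccn2, some other genes of the Hippo pathway were called lower, while the kinase gene Lats2 was not called (adjusted p = 0.281). How many genes of the pathway were tested was not counted. Ajuba stood at 50.01, 50.1 and 49.3 CPM against 64.7, 63.5 and 68.8 CPM (adjusted p = 0.00719), Amotl2 at 57.5, 57.5 and 54.1 CPM against 70.7, 73.7 and 74.9 CPM (adjusted p = 0.0083), and Ptpn14 at 35.6, 37.9 and 39.2 CPM against 52.0, 50.9 and 49.7 CPM (adjusted p = 0.00659). Tead1 (-0.36) and Nf2 (-0.22) were lower too. Of translation factors, Eif4b (-0.25, adjusted p = 0.0165) and the poly(A)-binding protein gene Pabpc1 (-0.23, adjusted p = 0.0332) were called lower.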
